A study of Mus musculus with 19 samples.

Results

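The comparison described here sets blood capillary endothelial cells of Peyer's patches against those of mesenteric lymph nodes in BALB/c mice, an inbred strain. The differences come from the 5 of 19 arrays whose titles name these cells, 3 of Peyer's patch and 2 of mesenteric capillary cells. They cover all 19938 genes with a probe set of 1 symbol. Peyer's patches are lymphoid follicles in the wall of the small intestine, and mesenteric lymph nodes receive the lymph of the gut. The labels name no allele and no treatment for any group, and they give each sample as an equal mix of males and females aged 6 to 8 weeks. Of 4 sex-linked genes 0 passed between the tissues in limma, but Xist, which is expressed in female cells, was 0.19, 0.55 and 0.00 in the Peyer's patch capillary arrays and -0.12 and -1.07 in the mesenteric ones (difference 0.84, adjusted p = 0.43). Mesenteric capillary array 2 was thus low in Xist, so an equal mix is the labels' statement and its part in the differences below was not tested. The labels do not give the surface markers by which capillary cells were sorted, nor how many mice were pooled, nor whether arrays of a group came from separate sorts. The tests therefore weigh differences only against the spread of arrays within groups, estimated over all 19 arrays in 7 groups. That spread may be technical. High endothelial cells, the lining of the venules through which lymphocytes enter, gave 3 Peyer's patch arrays and 4 mesenteric arrays, of which 2 were sorted as MAdCAM1+PNAd+ and 2 as MAdCAM1+. Peripheral lymph node capillary cells gave 3 further arrays.

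Capillary endothelial cells control what passes between blood and tissue. In tissues that burn or store fat they hold lipoprotein lipase at the vessel wall through Gpihbp1 and take up the freed fatty acids through Cd36 and fatty acid-binding proteins, a programme in which the nuclear receptor Pparg takes part. Notch signalling sets arterial identity along the vessel tree, and retinoic acid, made from vitamin A in gut tissue and mesenteric nodes, imprints gut homing on lymphocytes.

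The signal of each probe set is on a log2 scale and was centred on a baseline that is not stated, so 0 is no absence of signal and levels of different genes cannot be compared. Each value below is on that log2 scale, and each difference is Peyer's patch minus mesenteric. In bulk sorted cells, fewer cells of a type and less RNA per cell cannot be told apart. The cell type label was checked against markers. The mean of 18 pan-endothelial genes lay between 0.58 and 0.67 in the Peyer's patch arrays and was 0.60 and 0.63 in the mesenteric arrays, and 0 of these 18 genes passed the test. The mean of 15 genes of high endothelial venules was -0.57 to -0.02 in the 5 arrays. It was 2.63 to 3.11 in the 7 high endothelial arrays of both tissues. Of these 15 genes 1 was called higher and 2 lower in Peyer's patch capillary cells, with Lrg1 (-0.88) among the lower. Of 13 lymphatic endothelial genes 1 was higher and 0 lower, the integrin chain Itga9 (0.66), which passed narrowly in limma (adjusted p = 0.0498). Prox1, of the same list, was 1.24, 1.24 and 1.17 in Peyer's patch and 0.71 and 0.22 in mesenteric arrays. These did not overlap, but the difference of 0.76 did not pass in limma (adjusted p = 0.25). Of the 13 genes 7 had a difference above 0, with a median of 0.01. Over all genes 1.02% were called higher and 0.833% lower. Leukocyte-wide genes were between -0.57 and -0.45 in all 5 arrays, and none of 9 passed.

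The plot of marker lists in each array shows where the groups stood apart. Genes of the intestinal epithelium, which overlies Peyer's patches, had means of 0.25, 0.95 and 1.46 in Peyer's patch arrays 1, 2 and 3, and of 0.06 and 0.09 in the mesenteric arrays. Of 28 such genes, 4 were higher in Peyer's patch cells and 0 lower, against 1.02% of all genes called higher, with a median difference of 0.74 against -0.01 over all genes. Fabp2, a fatty acid-binding protein of enterocytes, differed by 2.64 and did not pass the test. The called members were Olfm4 (difference 1.03), Pigr (1.01), Cdh17 (0.83) and Epcam (0.67), and all 4 were also higher in Peyer's patch than in mesenteric high endothelial cells. The count of 4 was 1 without mesenteric array 1, 0 without mesenteric array 2 and 15 without Peyer's patch array 1, the array with the lowest mean. Pericyte and smooth muscle genes had means of -0.12 to 0.12 in Peyer's patch and of 0.43 and 0.53 in mesenteric arrays. Acta2 (-1.17), Myl9 (-1.06) and Myh11 (-0.84), which encode contractile proteins of smooth muscle, were lower in Peyer's patch cells, and Abcc9 (0.67), a potassium channel subunit of pericytes, was higher, which is 3 lower and 1 higher of 13 such genes, against 0.833% and 1.02% of all genes. None of these 4 passed without mesenteric array 2, where Acta2 had an adjusted p of 0.17, Myl9 of 0.44, Myh11 of 0.36 and Abcc9 of 0.12. The 3 lower calls became 1 without mesenteric array 1 and 0 without Peyer's patch array 2. The part of pericytes and epithelial cells in the differences below was not tested beyond the values given.

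**Figure D1:**
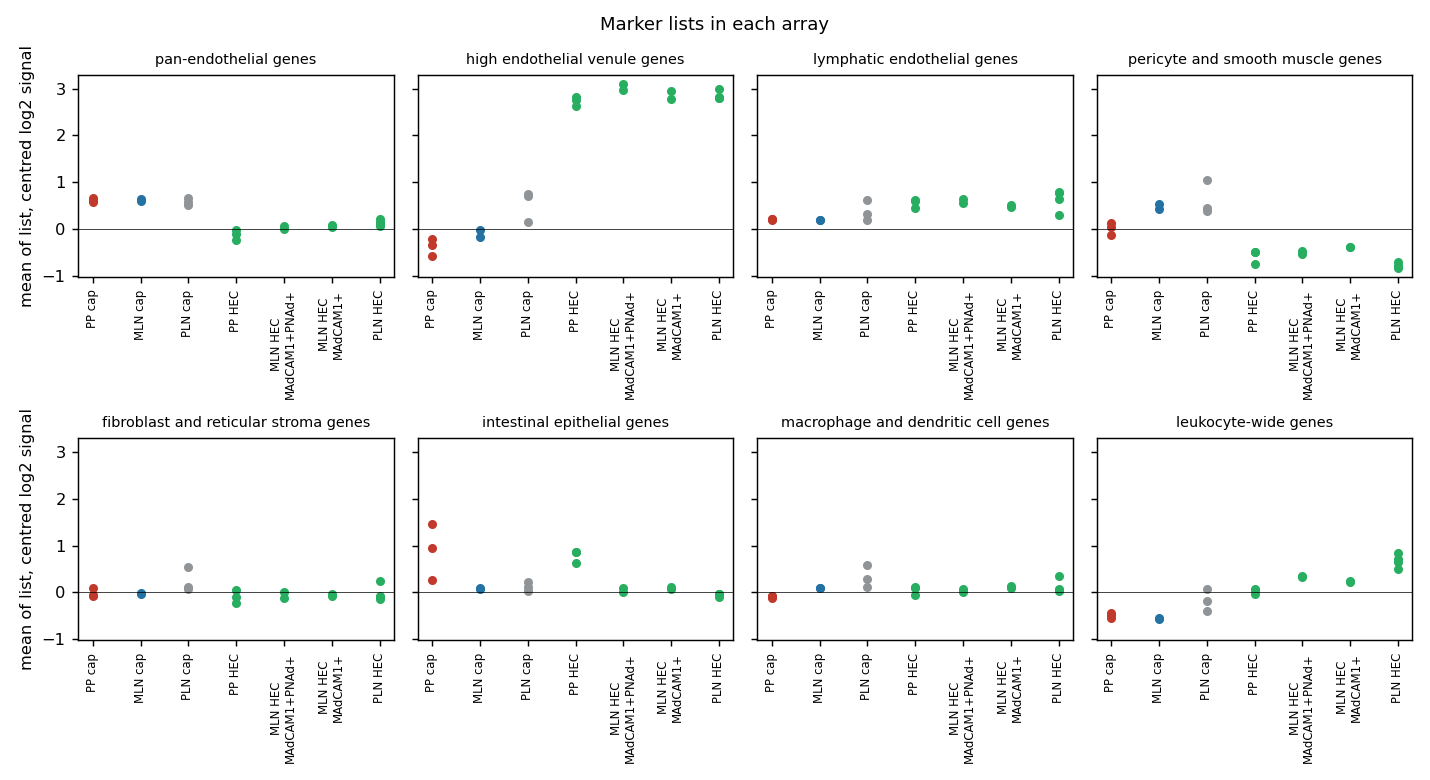
Mean centred log2 signal (y axis) of 8 marker lists in each array, with 1 point per array, for Peyer's patch (PP), mesenteric (MLN) and peripheral (PLN) capillary (cap) and high endothelial (HEC) arrays. The intestinal epithelial mean was 0.25, 0.95 and 1.46 in the Peyer's patch capillary arrays, above the 0.06 and 0.09 of the mesenteric ones, while the pan-endothelial means of the 5 arrays lay between 0.58 and 0.67.

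Between the tissues 370 of 19938 genes differed by limma's moderated test with Benjamini-Hochberg adjustment at 0.05, which is 1.86% of genes tested. Of these, 204 were higher in Peyer's patch cells (1.02%) and 166 lower (0.833%), and the median absolute difference of the called genes was 0.87. The arrays of both tissues did not overlap for any of the 370, where 23.8% of all genes showed no overlap. A difference of at least 1 was reached by 72 of the higher genes (0.361%) and 64 of the lower genes (0.321%). The mesenteric group rests on a pair of arrays, and the count was 199 without mesenteric array 1 and 167 without array 2, when the remaining array is assumed to vary like the other groups. Without Peyer's patch arrays 2 and 3, which had the higher means of intestinal epithelial genes, 150 genes were called. Of the 30 leading genes, the 15 largest called differences in each direction, 28 passed without each array in turn and 27 passed without Peyer's patch arrays 2 and 3 together.

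**Figure D2:**
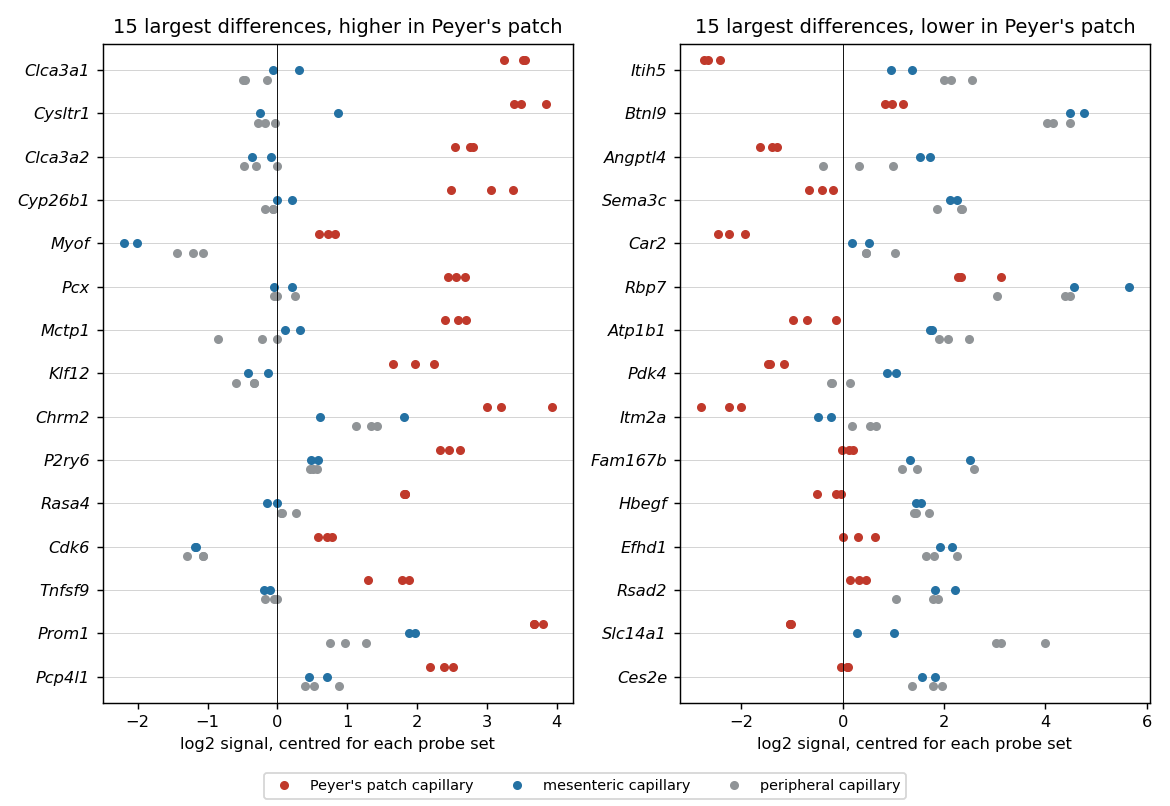
Centred log2 signal (x axis) of the 15 genes with the largest called difference in each direction, 1 point per array, in Peyer's patch (red), mesenteric (blue) and peripheral (grey) capillary cells. Red and blue points do not overlap for any of the 30 genes, because the choice of genes required it. For Itih5 the Peyer's patch arrays lie between -2.74 and -2.43 and the mesenteric arrays at 1.37 and 0.95.

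Genes higher in Peyer's patch capillary cells were led by Clca3a1, a member of a family first named as regulators of calcium-activated chloride channels. Clca3a1 was 3.52, 3.54 and 3.25 in the Peyer's patch arrays and -0.06 and 0.31 in the mesenteric arrays. The Peyer's patch arrays were all high and far from the mesenteric ones, a difference of 3.32 (SE 0.31, 9.95-fold, adjusted p = 6.8e-06). Clca3a2 was 2.77, 2.81 and 2.55 against -0.37 and -0.08, with a difference of 2.93 (adjusted p = 7.5e-05). Clca3b was 1.91, 0.93 and 0.85 against -0.08 and -0.12, again without overlap, and its difference of 1.33 passed (adjusted p = 0.0030). Of 7 family members measured, these 3 were higher and 0 lower, against 1.02% of all genes called higher. The list was gathered after its values were seen. The genes are near-identical copies, so how far each probe set reads its own gene is uncertain. The call of Clca3b was lost without mesenteric array 2 (adjusted p = 0.051), and without Peyer's patch arrays 2 and 3 its difference was 2.01. It was also lost when only the 5 arrays (adjusted p = 0.12) or only the 8 capillary arrays (0.057) entered the fit.

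Several of the leading genes encode receptors on the cell surface. Cysltr1, a receptor for cysteinyl leukotrienes, was 3.39, 3.85 and 3.49 in Peyer's patch and 0.87 and -0.25 in mesenteric arrays. Every Peyer's patch array exceeded both mesenteric arrays by far, and the difference was 3.27 (SE 0.30, adjusted p = 4.8e-06). Only Cysltr1 was called of 18 prostaglandin and leukotriene genes, against 1.86% of all genes. Chrm2, the M2 muscarinic acetylcholine receptor, was 3.21, 3.93 and 3.00 against 1.81 and 0.62. The mesenteric arrays differed from each other by more than the Peyer's patch arrays did, and the difference of 2.16 passed (adjusted p = 2.3e-04), except when only the 5 arrays entered the fit (0.057). P2ry6, a receptor for the nucleotide UDP, was 2.62, 2.33 and 2.46 against 0.58 and 0.49, a difference of 1.93 (SE 0.12, adjusted p = 3.7e-08). Both tissues were tight for P2ry6, and the gap was much larger than either spread.

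Further leading genes act inside the cell or at its membrane. Myof, a ferlin of membrane repair, was 0.60, 0.82 and 0.72 in Peyer's patch and -2.01 and -2.19 in mesenteric arrays, and differed by 2.82 (adjusted p = 1.1e-08). Pcx, the mitochondrial pyruvate carboxylase, was 2.69, 2.56 and 2.44 against 0.21 and -0.04, a difference of 2.48 (SE 0.11). Tnfsf9, the ligand of the T cell receptor 4-1BB, was 1.29, 1.89 and 1.79 against -0.10 and -0.19. For all of these the Peyer's patch arrays lay above both mesenteric arrays. Differences of 1.79 to 2.35 were also found for Mctp1 (2.35), the transcription factor Klf12 (2.23), the Ras-GTPase-activating protein Rasa4 (1.90), the cell cycle kinase Cdk6 (1.86), Prom1 (1.79) and Pcp4l1 (1.79). Among 36 cell cycle genes other than Cdk6, 0 were called in either direction by limma.

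Hpse, Has3 and St8sia6 were picked after their values were seen and belong to no list. Heparanase (Hpse), which cleaves heparan sulfate, was 1.94, 1.39 and 1.47 in Peyer's patch and -0.05 and -0.08 in mesenteric arrays, a difference of 1.66 (adjusted p = 2.3e-05). Has3, a hyaluronan synthase, differed by 1.01 (SE 0.13) and St8sia6, a sialyltransferase, by 1.57 (SE 0.19). Cd44, the hyaluronan receptor, was 1.44, 0.88 and 0.68 against -0.71 and -0.82. All Peyer's patch arrays were above the mesenteric arrays, and the difference of 1.77 (SE 0.27) passed (adjusted p = 0.0014). Itih5, whose family binds hyaluronan covalently, went the other way and gave the largest difference of all called genes. It was -2.43, -2.65 and -2.74 in Peyer's patch and 1.37 and 0.95 in mesenteric arrays, so that no array came near those of the other tissue. The difference was -3.77 (SE 0.19, 13.7-fold, adjusted p = 4.6e-09). In high endothelial cells Itih5 was between -3.43 and -2.57 in all 7 arrays of both tissues, far below the mesenteric capillary arrays.

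A list of 20 capillary genes, gathered for fatty acid uptake and metabolism, held 7 lower and 0 higher genes in Peyer's patch cells. Of all genes 0.833% were called lower, and the median difference of the list was -0.43. Not all its called members are fatty acid genes, since Btnl9, Cd300lg and Rbp7, described below, are capillary genes of other kinds. Btnl9, a butyrophilin-like gene found in capillary endothelium, was 0.84, 1.19 and 0.97 in Peyer's patch and 4.49 and 4.76 in mesenteric arrays. The 2 groups were separated by more than 3 log2 units, with a difference of -3.63 (SE 0.13, 12.3-fold, adjusted p = 7.7e-11). Angptl4, a secreted inhibitor of lipoprotein lipase, was -1.29, -1.64 and -1.39 against 1.52 and 1.72. It too did not overlap, and its difference of -3.06 (SE 0.39) passed (adjusted p = 2.3e-04). Pparg, the nuclear receptor of fat storage, was 1.04, 1.00 and 0.67 against 2.30 and 2.45, with a difference of -1.47 (SE 0.14, adjusted p = 6.5e-06). Gpihbp1, which holds lipoprotein lipase on the capillary wall, was 3.02, 2.98 and 3.06 against 4.42 and 4.27, and its difference was -1.33 (SE 0.20, adjusted p = 9.8e-04).

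The remaining called members were Rbp7, Cd300lg and Aqp7. Rbp7, a retinol-binding protein of capillary endothelium, was 3.11, 2.28 and 2.34 in Peyer's patch and 5.64 and 4.55 in mesenteric arrays. Arrays of 1 tissue were spread, yet the tissues did not overlap, and the difference was -2.52 (SE 0.38, adjusted p = 9.9e-04). Cd300lg, a surface glycoprotein also called nepmucin, was 1.10, 0.96 and 0.59 against 2.45 and 2.05 and differed by -1.36 (SE 0.19). Aqp7, the glycerol channel, was 4.07, 3.27 and 3.31 against 5.02 and 4.28, where the lowest mesenteric array was only just above the highest Peyer's patch array. Its difference of -1.10 passed (adjusted p = 0.022). The call of Aqp7 was lost without mesenteric array 1 (difference -0.73, adjusted p = 0.51), without Peyer's patch array 2 (0.12) or 3 (0.10), after a further quantile normalization (difference -0.65, adjusted p = 0.37), and in fits of only the 5 arrays (0.20) or the 8 capillary arrays (0.18). Rbp7 was lost without Peyer's patch arrays 2 and 3 together (adjusted p = 0.11), when 5 of the 20 genes were called.

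The other 13 members did not pass, among them the genes most used as capillary markers. Cd36, the fatty acid transporter, was 5.50, 5.66 and 5.65 in Peyer's patch and 5.52 and 5.85 in mesenteric arrays. The values overlapped, with a difference of -0.08 (SE 0.35). Car4, a carbonic anhydrase of the capillary surface, differed by -0.33 (SE 0.23), Fabp4 by -0.23, Fabp5 by 0.27 and Lpl by 0.04. Of the 20 members, 6 had a difference above 0.

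**Figure D3:**
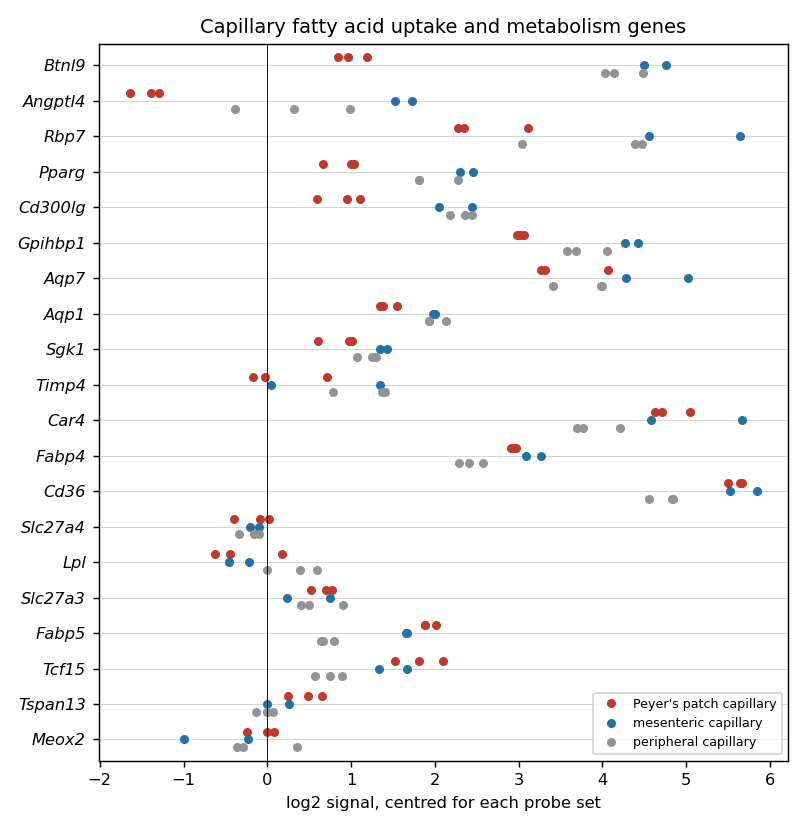
Centred log2 signal (x axis) of the capillary fatty acid list in each Peyer's patch (red), mesenteric (blue) and peripheral (grey) capillary array. The 20 genes are ordered by difference and include capillary genes of other kinds. The 7 called genes stand at the top from Btnl9 (difference -3.63) to Aqp7 (-1.10), and lower down the tissues overlap, as for Cd36 (-0.08).

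Outside that list, Pdk4, the kinase that turns off pyruvate dehydrogenase when fat is burnt, was -1.46, -1.43 and -1.16 in Peyer's patch and 0.87 and 1.06 in mesenteric arrays. The 2 groups were far apart, and the difference was -2.31 (SE 0.20, adjusted p = 2.8e-06). In peripheral capillary cells Pdk4 was -0.22, 0.14 and -0.20, so the 3 tissues did not overlap, with the mesenteric arrays highest. A list of 25 known PPAR targets, put together after the values were seen, held 8 lower and 0 higher genes, against 0.833% of all genes called lower. They were Angptl4, Rbp7, Pdk4, Gpihbp1 and Aqp7, the fatty acid hydroxylase Cyp4b1 (-1.48), and the lipid droplet genes Hilpda (-1.35) and Plin2 (-0.78). Mitochondrial beta-oxidation targets such as Cpt1a (-0.25), Acadl (-0.23) and Hadha (-0.12) did not pass. Hilpda was lost without mesenteric array 2 (adjusted p = 0.14), without Peyer's patch arrays 2 and 3 together (0.073) and with only the 5 arrays (0.063). Plin2 was lost without either mesenteric array (0.31 and 0.17), without Peyer's patch array 2 (0.12) or 3 (0.14), without both (0.82) and with each array centred on its median (0.053). None of 19 cholesterol and fatty acid synthesis genes was called by limma, at a median of -0.10.

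Further genes were lower in Peyer's patch cells by 1.36 to 2.60. Sema3c, a secreted semaphorin that guides axons and vessels, was -0.19, -0.41 and -0.66 in Peyer's patch and 2.25 and 2.12 in mesenteric arrays. It stood apart in every array, with a difference of -2.60 (SE 0.17, adjusted p = 7.4e-08). Car2, a cytosolic carbonic anhydrase, was -1.93, -2.24 and -2.47 against 0.18 and 0.52 and differed by -2.56 (SE 0.24). Atp1b1, a subunit of the sodium pump, differed by -2.36, Itm2a by -1.98, Hbegf, a ligand of the EGF receptor, by -1.72 and Efhd1 by -1.72. Slc14a1, a urea transporter, was -1.04, -1.03 and -1.02 against 0.28 and 1.02. The Peyer's patch arrays gave nearly a single value while the mesenteric arrays were spread, and the difference of -1.68 passed (adjusted p = 9.6e-04). Slc14a1 was higher still in peripheral capillary cells, at 4.00, 3.03 and 3.12, and the difference of mesenteric minus peripheral was -2.73 (adjusted p = 1.1e-04), in a contrast that called 0.291% of genes. Apoe, an apolipoprotein, differed by -1.36 (SE 0.16) and Gpr182, a receptor of the endothelium, by -1.37 (SE 0.14), both picked after their values were seen.

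Among the leading 15 lower genes, the calls of Fam167b and Ces2e were lost when some single arrays were left out. Fam167b was -0.01, 0.20 and 0.13 against 1.33 and 2.50, where mesenteric array 2 was far above array 1. Its difference of -1.81 (adjusted p = 0.025) became -1.23 without mesenteric array 2 (adjusted p = 0.51). It was also lost without Peyer's patch array 1 (0.068), 2 (0.070) or 3 (0.069), without 2 and 3 together (0.28) and with only the 8 capillary arrays (0.098). Ces2e, a carboxylesterase with near-identical family members, differed by -1.64 (adjusted p = 0.0027) and was lost without mesenteric array 1 (0.058) or without Peyer's patch arrays 2 and 3 (0.064). Its relative Ces2g differed by -1.53 (adjusted p = 8.9e-04) and was lost without Peyer's patch arrays 2 and 3 together (0.096).

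Genes of retinoic acid handling were called in both directions, with 2 of 18 higher, against 1.02% of all genes, and 1 lower, against 0.833%. Cyp26b1, the enzyme that breaks down retinoic acid, was 2.48, 3.37 and 3.06 in Peyer's patch and 0.00 and 0.21 in mesenteric arrays. Every Peyer's patch array was more than 2 units above both mesenteric arrays, a difference of 2.87 (SE 0.20, adjusted p = 2.1e-07). Rarb, a retinoic acid receptor whose gene is itself induced by retinoic acid, was 1.18, 0.81 and 0.85 against 0.08 and 0.07 and differed by 0.87 (SE 0.12, adjusted p = 6.4e-04). Rbp7 was lower, as above. The other 15 of 18 genes did not pass, including the synthesis enzymes Aldh1a1 (0.16), Aldh1a2 (-0.12) and Rdh10 (-0.42) and the second degrading enzyme measured, Cyp26a1 (-0.06). In peripheral capillary cells Cyp26b1 lay between -0.18 and -0.07, close to the mesenteric values.

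Arterial and Notch genes had 5 called members of 20, all higher in Peyer's patch cells, against 1.02% of all genes called higher. Hey2, a transcription factor downstream of Notch, was 1.34, 1.55 and 1.22 in Peyer's patch and -0.35 and -0.04 in mesenteric arrays. No array lay between, and the difference was 1.57 (SE 0.23, adjusted p = 7.3e-04). Jag1, a Notch ligand, was 1.23, 1.18 and 1.05 against 0.32 and 0.25 and differed by 0.87 (SE 0.14, adjusted p = 0.0018). Gja5, the arterial gap junction protein connexin 40, was 3.42, 3.59 and 3.61 against 2.00 and 3.07. The mesenteric arrays were far apart, and the difference of 1.00 (adjusted p = 0.0094) was 0.46 without mesenteric array 1 (adjusted p = 0.15) and 1.54 without array 2 (7.6e-06). Mgp, a matrix inhibitor of calcification, differed by 0.86 and the arterial kinase Bmx by 0.67.

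Without mesenteric array 2 the adjusted p of Mgp was 0.11 and that of Bmx 0.069, and without array 1 that of Bmx was 0.15. Without Peyer's patch arrays 2 and 3 together it was 0.34 for Gja5 and 0.070 for Mgp. In a fit of only the 5 arrays Gja5 (0.23) and Bmx (0.13) were lost, and in one of the 8 capillary arrays Gja5 (0.14) and Bmx (0.068). The count of 5 was 3 without mesenteric array 1, without mesenteric array 2 and without Peyer's patch arrays 2 and 3. The other 15 members did not pass, among them the ligand Dll4 (0.05), the receptors Notch1 (0.13) and Notch4 (-0.15), and the arterial ephrin Efnb2 (0.07). The Notch target Nrarp had a difference of -0.52 and Hey1 one of 0.22.

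The Hey2 promoter is printed because Hey2 is the member of the Notch list with the largest difference and a direct Notch target. The sequence is the 250 bases before the transcription start, from RefSeq (GRCm38.p6, minus strand, chr10:30842784-30843033), and capitals mark the letters of GTGGGAA, the motif of the Notch-directed factor RBPJ, read on the opposite strand.
Hey2: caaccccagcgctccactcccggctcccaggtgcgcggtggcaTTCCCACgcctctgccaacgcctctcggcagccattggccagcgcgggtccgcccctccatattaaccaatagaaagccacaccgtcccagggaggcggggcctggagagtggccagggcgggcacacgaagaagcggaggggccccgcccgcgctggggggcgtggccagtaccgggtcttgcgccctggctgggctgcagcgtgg
The motif, searched on both strands, occurred 1 time here and in 5.42% of 32851 RefSeq promoter windows of the same length. A match is a description of the letters and not a measured site.

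Angiogenic genes had 3 called members of 21, all higher, against 1.02% of all genes called higher. Esm1, a proteoglycan of sprouting tip cells, was 3.97, 4.38 and 4.27 in Peyer's patch and 2.55 and 3.42 in mesenteric arrays, with a difference of 1.22 (SE 0.21, adjusted p = 0.0030). Vegfc, a growth factor for lymphatic vessels, was 1.25, 1.54 and 1.57 against 0.17 and 0.58 and differed by 1.07. Vegfa differed by 0.54 (adjusted p = 0.017). The groups did not overlap for any of the 3, while mesenteric array 2 stood nearer to the Peyer's patch arrays for Esm1 and Vegfc. Without mesenteric array 1 Esm1 had a difference of 0.79 (adjusted p = 0.10) and Vegfc of 0.87 (0.13), and 1 of the 3 calls was left. Vegfa was lost without mesenteric array 2 (0.34) or Peyer's patch array 2 (0.095) or 3 (0.071), with the replicate number as a block (0.054), and with only the 5 (0.17) or 8 (0.11) arrays. Without Peyer's patch arrays 2 and 3 together 0 of the 3 passed in limma (0.22, 0.28 and 0.84 for Esm1, Vegfc and Vegfa), and in the fits of 5 and 8 arrays Esm1 was lost too (0.089 and 0.065). The receptors Kdr (-0.11) and Flt1 (0.09) and the tip cell gene Apln were not among the calls.

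Plat, the tissue plasminogen activator that starts the dissolution of clots, was 2.16, 2.25 and 2.16 in Peyer's patch, 0.68 and 0.46 in mesenteric and -0.22, -0.25 and -0.06 in peripheral arrays. The 3 tissues formed separate steps, and the difference between Peyer's patch and mesenteric cells was 1.62 (SE 0.25, adjusted p = 0.0011). It was lost without Peyer's patch arrays 2 and 3 together (adjusted p = 0.057). Igfbp4, a binding protein of insulin-like growth factors, differed by 1.11 (SE 0.15) and was lost in that same setting (0.060). Ahrr, the repressor of the aryl hydrocarbon receptor, which senses dietary and microbial ligands in the gut, was 1.23, 1.27 and 1.09 against -0.01 and 0.13. The gap was about 1 unit in each array, and the difference was 1.14 (SE 0.10, adjusted p = 2.8e-06). Cyp1a1, the enzyme that the receptor is best known to induce, went the other way, at 0.53, 0.21 and 0.28 against 1.63 and 1.05. Its difference of -0.999 (adjusted p = 0.0029) was -0.70 without mesenteric array 1 (0.11), and the call was also lost without Peyer's patch arrays 2 and 3 together (0.21) and with only the 5 arrays (0.065). In peripheral arrays Cyp1a1 was 0.16, 0.34 and 0.12, close to the Peyer's patch values. Mesenteric minus peripheral was 1.13 for this gene (limma adjusted p = 0.0053), so the mesenteric arrays stood apart from both other tissues. The list of 9 aryl hydrocarbon receptor genes thus had 1 higher and 1 lower member, against 1.02% and 0.833% of all genes. Its other 7 genes did not pass.

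Regulators of organ identity differed in a few members. Nkx2-3, a homeobox factor needed for the vessels of gut lymphoid tissue, was 2.50, 2.08 and 2.22 in Peyer's patch, 0.98 and 0.57 in mesenteric and -0.15, 0.17 and -0.04 in peripheral arrays. The arrays of the 3 tissues did not overlap. The difference between Peyer's patch and mesenteric cells was 1.50 (SE 0.20, adjusted p = 4.2e-04), while that of mesenteric minus peripheral cells, 0.78 (SE 0.20), did not pass (adjusted p = 0.19). Meis2, a partner of Hox proteins, was 1.72, 1.66 and 1.40, then 0.50 and 0.35, then -1.36, -0.96 and -1.54 in the same order, with differences of 1.17 (adjusted p = 0.0030) and 1.71 (9.7e-04). Both steps passed for Meis2, though the first was lost without mesenteric array 2 (adjusted p = 0.064).

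Of 33 Hox, Meis and Pbx genes, Meis2 was higher and Hoxa9 and Hoxd9 lower, against 1.02% and 0.833% of all genes called in these directions. Hoxa9 was -0.10, -0.18 and 0.06 in Peyer's patch and 0.55 and 0.70 in mesenteric arrays, and Hoxd9 was -0.59, -0.31 and -0.33 against 0.39 and 0.50. Both sets of arrays lay apart, with differences of -0.70 (adjusted p = 0.0036) and -0.86 (0.016). Without mesenteric array 2 Hoxa9 had an adjusted p of 0.092 and Hoxd9 of 0.19. Hoxd9 was also lost without mesenteric array 1 (0.10) or Peyer's patch array 1 (0.062), and without Peyer's patch arrays 2 and 3 together both were lost (0.068 for Hoxa9 and 0.091 for Hoxd9). The venous factor Nr2f2 had a difference of -0.34 (SE 0.17) and did not pass.

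Of 7 genes of antigen presentation on MHC class II, 3 were lower in Peyer's patch capillary cells and 0 higher, against 0.833% of all genes called lower, and the median difference was -0.47. H2-Aa, a class II chain, was -0.37, -0.32 and -0.34 in Peyer's patch and 0.43 and 0.94 in mesenteric arrays. The Peyer's patch arrays were closely alike and below both mesenteric arrays, a difference of -1.02 (SE 0.15, adjusted p = 8.0e-04). H2-Ab1, its partner chain, differed by -1.15 (SE 0.19) and Cd74, the invariant chain, by -1.31 (SE 0.25). H2-Eb1 (-0.47), H2-DMa (-0.28), H2-Oa (-0.06) and the class II transactivator Ciita (-0.15) did not pass. Without mesenteric array 2 H2-Ab1 (adjusted p = 0.068) and Cd74 (0.19) were lost, and without Peyer's patch arrays 2 and 3 together Cd74 was (0.064). All 3 genes were also lower in Peyer's patch than in mesenteric high endothelial cells, where H2-Aa differed by -1.35 and H2-Ab1 by -1.43. Genes of macrophages and dendritic cells, which carry class II, had means of -0.12 to -0.07 in the Peyer's patch arrays and of 0.09 in both mesenteric arrays. Of 18 of these, 0 were higher and 2 lower, Fcer1g (-1.18) and Cd14 (-0.82), against 0.833% of all genes called lower. Cd14 was lost without either mesenteric array and without Peyer's patch array 2 (limma adjusted p = 0.11) or 3 (0.12). The part of such cells in the class II difference was not tested.

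Interferon-stimulated genes were called in both directions, with 2 of 19 higher, against 1.02% of all genes, and 3 lower, against 0.833%. Rsad2, the antiviral protein viperin, was 0.47, 0.33 and 0.14 in Peyer's patch and 1.83 and 2.22 in mesenteric arrays. Both mesenteric arrays were above all Peyer's patch arrays, a difference of -1.71 (SE 0.22, adjusted p = 2.5e-04). Irf7 (-0.78) and Usp18 (-0.99) were lower as well, and the GTPase Iigp1 (1.04) and the chemokine Cxcl10 (0.69) were higher. Except for Rsad2 these calls were lost when some single arrays were left out. Without mesenteric array 1 Irf7 had an adjusted p of 0.31, Usp18 of 0.61 and Cxcl10 of 0.12, and without array 2 Iigp1 had one of 0.13 and Cxcl10 of 0.50. Without Peyer's patch array 2 Irf7 (0.062), Usp18 (0.15) and Cxcl10 (0.10) were lost, without array 3 Irf7 (0.067) and Usp18 (0.17), and without array 1 Cxcl10 (0.17). The promoter of Rsad2, the leading gene of this list, is given from RefSeq (GRCm38.p6, minus strand, chr12:26456453-26456702, the 250 bases before the start). Capitals mark GAAANNGAAA, the paired core bound by interferon regulatory factors, read on the opposite strand.
Rsad2: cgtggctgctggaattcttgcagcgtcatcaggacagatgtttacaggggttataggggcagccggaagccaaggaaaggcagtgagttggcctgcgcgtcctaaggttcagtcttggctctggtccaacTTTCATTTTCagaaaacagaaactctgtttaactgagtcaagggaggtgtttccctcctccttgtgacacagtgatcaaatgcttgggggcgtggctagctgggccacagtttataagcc
Searched on both strands, this motif occurred 1 time here and in 2.98% of the 32851 windows.

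Chemokines had 1 higher and 3 lower members of 15, against 1.02% and 0.833% of all genes, and the higher one was Cxcl10, given above. Cxcl9, which attracts activated T cells, was -2.00, -2.15 and -2.05 in Peyer's patch, -0.68 and -1.01 in mesenteric and 0.76, 0.85 and 0.55 in peripheral arrays. The tissues did not overlap, and the difference between Peyer's patch and mesenteric cells was -1.22 (SE 0.19, adjusted p = 0.0014). Cx3cl1, a membrane-bound chemokine, differed by -1.05 and Cxcl1, which attracts neutrophils, by -0.95. Cxcl9 was lost without Peyer's patch arrays 2 and 3 together (adjusted p = 0.077), Cx3cl1 without mesenteric array 1 (0.13) and Cxcl1 without mesenteric array 2 (0.40) or Peyer's patch array 2 (0.10). The scavenging receptor Ackr3 differed by 0.77 and was lost without mesenteric array 1 (0.077) or 2 (0.19) and without Peyer's patch array 2 (0.062). Of 14 leukocyte adhesion molecules, Cd44 and L1cam (0.84) were higher and 0 lower, against 1.02% of all genes called higher. L1cam was lost without mesenteric array 2 and without Peyer's patch array 2 (limma adjusted p = 0.12). Madcam1, the gut addressin, was 0.00, -0.42 and 0.46 against -0.61 and -0.92, with a difference of 0.77 (SE 0.25) that did not pass (adjusted p = 0.21).

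Among further lists, junction genes had 1 lower member of 17, Jam3 (-1.11, SE 0.15). The list of blood-brain-barrier type transporters and Wnt targets had 2 of 16, the efflux pump Abcg2 (-1.28, SE 0.18) and the Wnt inhibitor Apcdd1 (-1.16, SE 0.12). Neither list had a higher member, and 0.833% of all genes were called lower. Apcdd1 was -1.25, -1.28 and -1.46 in Peyer's patch and -0.35 and 0.00 in mesenteric arrays, without overlap. The TGF-beta and BMP list had 2 higher and 2 lower members of 24, against 1.02% and 0.833% of all genes. Among the lower ones the co-receptor Tgfbr3 was -0.89, -0.84 and -0.79 against 0.08 and 0.11. Its difference of -0.94 (SE 0.10) passed in limma (adjusted p = 1.8e-05). Jam3, Abcg2, Apcdd1 and Tgfbr3 passed without each array in turn. Genes of complement (0 of 14), of secretion and protein folding stress (0 of 30) and of the cell cycle (0 of 36) were not called by limma, in a comparison that held 1594 genes at an unadjusted p under 0.05.

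The same tissues could be compared in high endothelial cells, on other arrays. The labels do not say whether capillary and high endothelial cells of a tissue were sorted from the same mice. Deviations from the group mean of mesenteric capillary arrays 1 and 2 correlated across genes by 0.44 with those of MAdCAM1+PNAd+ arrays 1 and 2, and by 0.52 with those of MAdCAM1+ arrays 3 and 4, in that order. Xist was low in the even-numbered arrays of each pair, at -1.07, -0.61 and -0.73, against -0.12 to 0.27 in the odd-numbered ones. In Peyer's patches the same-numbered arrays of the cell types correlated by -0.11, 0.07 and -0.40. Those of unlike number ranged from -0.37 to 0.40, with 0.40 for capillary array 1 with high endothelial array 3 and 0.36 for capillary array 3 with high endothelial array 2. Whether the arrays of either tissue share animals was not tested, so the 2 comparisons cannot be taken as independent. Peyer's patch minus mesenteric high endothelial cells gave 239 called genes (1.2%), 111 higher (0.557%) and 128 lower (0.642%). Of the 370 capillary genes 49 were called in the same direction there and 4 in the opposite one, and these 49 are 13.2% of the capillary calls and 20.5% of the high endothelial calls. The sign was shared by 269 of the 370 (72.7%), against 52.3% of all genes. Across genes, which are not independent replicates, Pearson's r of the differences was 0.51 over the 370 and 0.24 over all genes.

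A test of cell type by tissue interaction asked which capillary differences were unlike those of high endothelial cells. It called 150 genes (0.752%), 87 positive (0.436%) and 63 negative (0.316%), and 116 of the 370 capillary genes were among them. Without mesenteric capillary array 1 or 2 the test called 73 and 83 genes. With the odd-numbered and the even-numbered mesenteric arrays as a block across cell types, it called 178 genes, and the high endothelial comparison called 317. Btnl9 gave the largest interaction, -3.60 (SE 0.18, adjusted p = 6.3e-09), as its high endothelial difference was -0.03. Itih5 (-3.45), Angptl4 (-3.41), Sema3c (-2.84) and Rbp7 (-2.64) followed on the lower side. Rbp7 stood between -0.29 and 0.28 in the high endothelial arrays of both tissues, against 2.28 to 5.64 in their capillary arrays. Signal over background is unknown, so whether a small high endothelial difference reflects a faint signal was not tested. Cyp26b1 (2.58), Pcx (2.52), Clca3a1 (2.33) and Cysltr1 (2.10) had the largest positive interactions beside Plat, all with a high endothelial difference smaller than the capillary one. Cysltr1 was also called higher in Peyer's patch high endothelial cells, by 1.16 (limma adjusted p = 0.027). Its mesenteric gates differed, at 1.11 and 0.49 in the MAdCAM1+PNAd+ arrays and 2.36 and 2.77 in the MAdCAM1+ arrays.

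In a few genes the tissue difference ran in opposite directions in the 2 cell types. Plat was -1.34, -2.20 and -1.40 in Peyer's patch high endothelial arrays and between -0.92 and -0.27 in the 4 mesenteric ones. The high endothelial arrays did not overlap either, with a difference of -1.02 (adjusted p = 0.018), and the interaction was 2.64 (SE 0.32, adjusted p = 2.8e-04). Aplnr, the receptor of the vascular peptide apelin, was 1.94, 2.02 and 2.12 in Peyer's patch and 2.85 and 2.98 in mesenteric capillary arrays, a difference of -0.88 (adjusted p = 0.0076). In high endothelial cells it was 2.17, 1.75 and 2.27 against 0.14 to 1.26, a difference of 1.39 (SE 0.14) and an interaction of -2.27 (adjusted p = 2.6e-05). The capillary call of Aplnr was lost without mesenteric array 1 (adjusted p = 0.054) or 2 (0.13).

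Other genes differed between the tissues in both cell types. Cd44 was 1.31, 1.29 and 1.30 in Peyer's patch high endothelial arrays and between -0.75 and -0.01 in mesenteric ones, a difference of 1.66 (SE 0.23, adjusted p = 7.5e-04) beside 1.77 in capillary cells. Its interaction of 0.11 (SE 0.36) did not pass. Cdk6 differed by 1.24 (SE 0.12) in high endothelial and 1.86 in capillary cells, with an interaction of 0.62 (SE 0.18, adjusted p = 0.20). Cd300lg differed by -1.42 (SE 0.16) and -1.36 in the same order, with an interaction of 0.06 (SE 0.25). Slc14a1 was -1.07, -1.16 and -0.71 in Peyer's patch high endothelial arrays, 1.26 and 1.39 in the MAdCAM1+PNAd+ arrays and -0.04 and 0.00 in the MAdCAM1+ arrays. Peyer's patch arrays were the lowest and the gates differed, with a mean difference of -1.63 (SE 0.21) beside -1.68 in capillary cells. An interaction that misses the threshold does not show that the differences were equal.

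**Figure D4:**
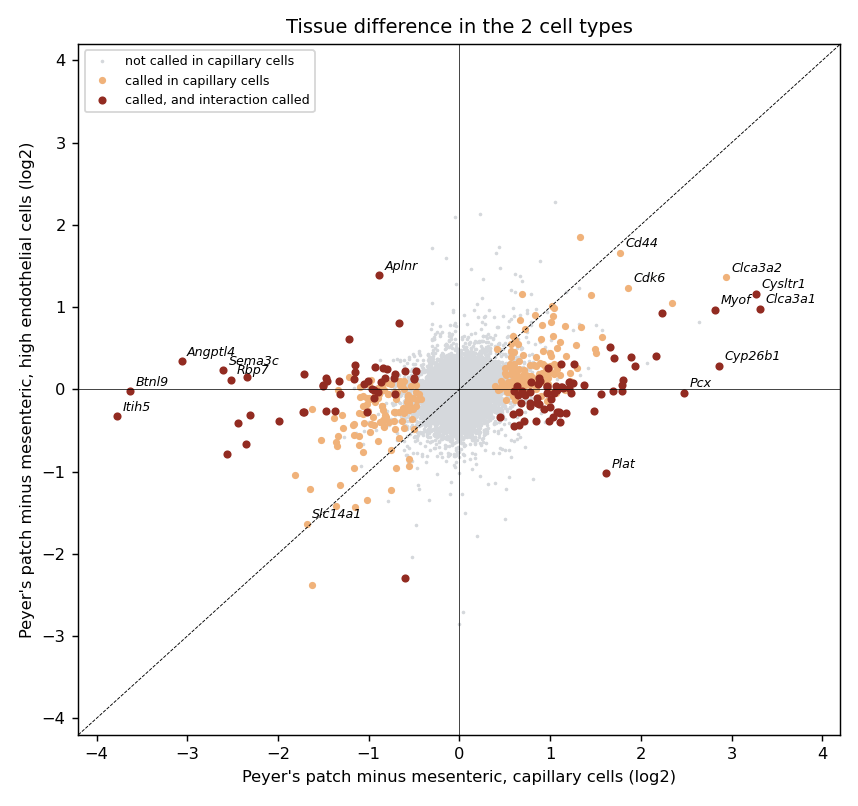
Peyer's patch minus mesenteric log2 difference in capillary cells (x axis) and in high endothelial cells (y axis), 1 point per gene, with the dashed line marking equal differences. Orange and dark red points are the 370 genes called in capillary cells, and dark red marks the 116 of them also called in the interaction. Btnl9 (-3.63 and -0.03) lies near the horizontal line at 0, and Cd44 (1.77 and 1.66) near the dashed line.

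**Figure D5:**
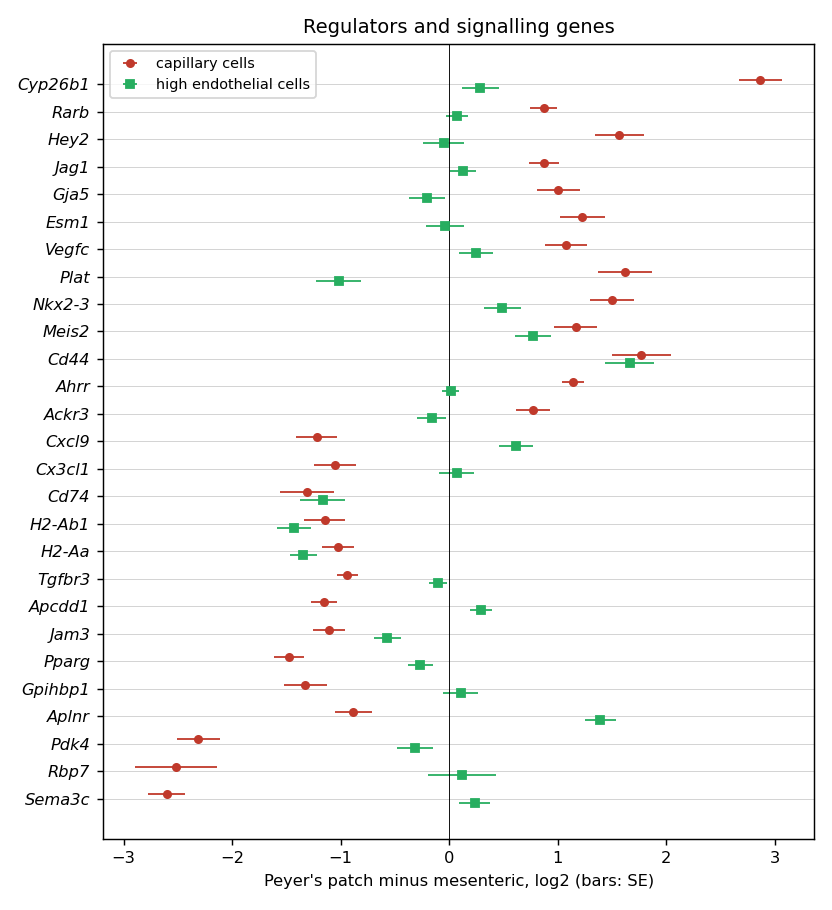
Peyer's patch minus mesenteric log2 difference with its SE (bars) for selected regulators and signalling genes, in capillary cells (red circles) and high endothelial cells (green squares). Plat (1.62 and -1.02) and Aplnr (-0.88 and 1.39) lie on opposite sides of 0 in the 2 cell types, while H2-Aa (-1.02 and -1.35) lies on the same side.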

How the data were processed

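RNA of sorted cells was amplified, labelled and hybridised to 1-colour arrays, per the labels' protocols. The deposited values are log2 signals that the authors made with RMA and Partek (the submitters' processing notes give no versions). They had been centred for each probe set on an unstated baseline (range -4.092 to 6.128), so signal over background and detection are unknown and no filter on dim probes was possible. The number of arrays limits the precision.

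The platform annotation gave 1 symbol for 21789 of 28856 probe sets, several for 1621 and none here for 5446. Through the Entrez identifier 21698 matched a gene table, which changed 0 symbols. Probe sets of the 999 genes with more than 1 were averaged, which left 19938 genes.

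The model held 7 group means over the 19 arrays and was fitted in limma 3.58.1 (lmFit, eBayes) in R 4.3.3, with 12 residual and 4.62 prior degrees of freedom. Tests were two-sided, with Benjamini-Hochberg adjustment across all genes and a threshold of 0.05. Mesenteric high endothelial cells were the mean of both gates. No batch, slide or scan date is given in the labels. No 2 arrays of the same group were alike, since the SD of differences within groups was 0.20 to 0.45.

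Named genes were the 15 largest differences of at least 1 in each direction without overlap, up to 4 called members of each of 45 lists, fixed endothelial genes and the 5 largest interactions in each direction, without predicted genes, chemosensory receptors, small RNAs and antigen receptor segments. To these 116 came 18 picked after seeing their values, and 2 lists were made then. The comparison and all lists were chosen with earlier results of these data known. Lists are described by counts and medians, with no set test. The fit was tested on simulated data. Results were repeated with a block for the replicate number, without each array, with the probe set of widest range, quantile normalization again, centring each array, array weights, a robust prior, a filter on range, fits of 5 or 8 arrays, a minimum difference of 1 and each gate alone. Leaving out Peyer's patch arrays 2 and 3 together, and a block of odd-numbered and even-numbered mesenteric arrays, were chosen after seeing the data.

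Plots used Python 3.11.15 and matplotlib 3.10.9.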

Additional observations from a re-analysis of the deposited data

Results flagged for a closer look

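The Peyer's patch minus mesenteric difference was tested for being unlike in capillary and high endothelial cells, and each gene here passed that interaction test at an adjusted p of 0.05 in limma and was called in capillary cells. Values are the capillary minus the high endothelial difference on the log2 scale, and their causes were not tested. A gene faint in high endothelial cells can show little difference there, and signal over background is unknown.

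Receptors, enzymes and surface proteins that stood higher in Peyer's patch capillary cells gave interactions of 2.33 for Clca3a1, 2.10 for Cysltr1, 1.76 for Chrm2, 1.65 for P2ry6, 2.58 for Cyp26b1, 2.52 for Pcx, 1.81 for Prom1 and 1.69 for Tnfsf9. Enpp6, a choline phosphodiesterase, had 1.71, heparanase Hpse 1.15 and the hyaluronan synthase Has3 1.13. Myof had 1.85, Klf12 1.31, Rasa4 1.50, Pcp4l1 1.74 and the gastrokine Gkn3 1.09.

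Among vascular signalling genes the interaction was 2.64 for Plat, 1.62 for Hey2, 1.21 for Gja5, 1.02 for Mgp, 1.27 for Esm1, 1.13 for Ahrr, 0.80 for Rarb and 1.40 for Igfbp4. The TNF receptor Tnfrsf1b had 1.00, the guidance ligand Slit3 0.96, L1cam 1.22, the endocytic protein Ehd4 0.98, Ackr3 0.94 and the integrin chain Itga9 1.09.

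On the lower side, capillary and metabolic genes gave -3.60 for Btnl9, -3.41 for Angptl4, -2.64 for Rbp7, -1.21 for Pparg and -1.43 for Gpihbp1. Further values were -1.62 for Cyp4b1, -2.00 for Pdk4, -1.78 for Car2 and -1.69 for Atp1b1. Itih5 had -3.45, Sema3c -2.84, Itm2a -1.60, Efhd1 -1.91 and Hbegf -1.45. The receptors Aplnr and Gpr182 had -2.27 and -1.10, and the natriuretic peptide receptor Npr2 had -0.95. Cxcl9 had -1.83, Cx3cl1 -1.12, Rsad2 -1.43, Apcdd1 -1.45, Tgfbr3 -0.84 and the homeobox gene Irx3 -1.11.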

How the results depend on the processing

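The 370 capillary calls became 790 with array weights, 136 with a minimum difference of 1, 224 with only the 5 arrays and 150 without Peyer's patch arrays 2 and 3 together, and ranged from 167 to 369 with 1 array left out. Other settings gave 254 (8 capillary arrays), 340 (arrays centred), 359 (widest probe set), 363 (robust prior), 381 (range filter) and 499 (quantile normalization). The array weights behind the 790 did not converge, so that count is not a reliable alternative. The 150 interaction calls became 1703 with array weights, which did not converge, and 73 to 220 with 1 array left out. High endothelial calls, 239, became 155 and 77 with the double-positive or the MAdCAM1+ gate alone. With 1 array left out, and then without Peyer's patch arrays 2 and 3, called members were 1 to 3 and 0 for angiogenic genes, 3 to 5 and 3 for arterial genes, 6 to 8 and 5 for fatty acid genes, 0 to 2 and 1 for higher and 1 to 3 and 1 for lower interferon genes, 0 to 15 and 1 for epithelial genes, 1 to 4 and 2 for class II genes, 0 to 1 and 0 for higher and 0 to 2 and 0 for lower pericyte genes. Of 120 named genes called, 49 passed under all 15 alternatives, 57 without each array in turn, and 0 changed sign.

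Peyer's patch and mesenteric capillary arrays share only the replicate numbers 1 and 2, whose deviations correlated by 0.43 and 0.23, and the numbers were not taken as pairs. With the replicate block 364 capillary genes were called, 323 of them among the 370, 101 interaction genes and 153 high endothelial genes. This block joined arrays by number across all groups. It thus set MAdCAM1+ arrays 3 and 4 apart from mesenteric capillary arrays 1 and 2, with which their deviations correlated by 0.52. With 3 arrays against 2 and no levels, small differences and faint genes are beyond reach.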

Other observations

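Some called genes lie outside the groups above. Hypoxia and glycolysis genes had 3 higher and 0 lower members of 18, against 1.02% of all genes called higher. Vegfa, counted above among the angiogenic genes, was 1 of them. The others were Egln3 (1.21, SE 0.23), a prolyl hydroxylase that marks the transcription factor HIF for decay, and Ankrd37 (0.84, SE 0.16). Egln3 was 0.14, 0.01 and 0.09 in Peyer's patch and -1.13 and -1.15 in mesenteric arrays, without overlap, yet both calls were lost without either mesenteric array (adjusted p in limma of 0.078 and 0.098 for Egln3, 0.059 and 0.096 for Ankrd37). Of 16 vasoactive genes 1 was higher and 3 were lower, against 1.02% of all genes called higher and 0.833% called lower. Nos3, the endothelial nitric oxide synthase, was higher by 0.57. The endothelin receptor Ednrb (-0.65), the natriuretic peptide receptor Npr2 (-0.82) and the phosphodiesterase Pde2a (-0.62) were lower. Without mesenteric array 1 these 4 had adjusted p of 0.25, 0.28, 0.13 and 0.21, and Ednrb differed by -0.33 after a further quantile normalization (0.51).

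Hamp, the gene of the iron hormone hepcidin, was -0.04, -1.07 and -0.02 in Peyer's patch and 1.17 and 1.32 in mesenteric capillary arrays, a difference of -1.62 (adjusted p = 0.0051) that was lost without mesenteric array 2 (0.085), without Peyer's patch arrays 2 and 3 together (0.11) and in fits of the 5 (0.068) or 8 capillary arrays (0.065). It was also lower in Peyer's patch than in mesenteric high endothelial cells, by -2.38 (SE 0.25). Gkn3, a gastrokine, was 1.55, 0.85 and 1.32 against 0.22 and 0.00, a difference of 1.13 (SE 0.16) that was lost with only the 5 arrays (0.059), and in high endothelial cells it differed by 0.03. Hamp and Gkn3 were picked after their values were seen.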
